A study of Mus musculus with 24 samples.

Results

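Fatty acid activation and oxidation was followed through 33 genes in hippocampal cells of mice with and without a conditional deletion of the receptor gene Notch2. The genes were taken by symbol from the 48321 gene symbols of the count tables. They encode the enzymes that activate fatty acids, carry them into mitochondria and shorten them, with the peroxisomal counterparts and a few regulators. All 33 had enough reads to be tested. RNA came from hippocampal cells of adult C57BL/6 mice that had been sorted for GFP. Conditional knockout (CKO) mice carried Hes5::CreERT2, Notch2 flox/flox and Rosa26R-CAG::GFP, and wild-type (WT) mice carried the same Cre driver and reporter with Notch2 wt/wt. Mice of both genotypes received tamoxifen for 5 days, and cells were taken after a chase of 1 day. Cre activity, and with it the GFP label, therefore depended on expression of Hes5, a Notch target gene. Each genotype was represented by 3 pools, each of cells from several animals, and each pool by 2 libraries made with Smart-Seq2, a full-length cDNA method. The labels do not say whether pools shared animals. The p-values therefore set a difference only against the spread of the pools at hand, which may be technical in part.

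A fatty acid is first joined to coenzyme A by an acyl-CoA synthetase. Long chains then cross the inner mitochondrial membrane as carnitine esters and are shortened in repeated rounds of oxidation, hydration, oxidation and thiolysis, with electrons passed on to ubiquinone. In the brain this pathway is mainly a property of astrocytes and neural stem and progenitor cells rather than of neurons, and oxidation of fatty acids has been tied to the quiescent state of hippocampal stem cells.

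The stretches of sequence shown first belong to genes on which later comparisons rest, and their bases are those of RefSeq on GRCm38.p6. Hadha and Hadhb, which encode the subunits of the mitochondrial trifunctional protein, lie head to head on chromosome 5 (Hadha on the minus strand, Hadhb on the plus strand). Only 85 bases, of which 69.4% are G or C, separate their annotated starts at chr5:30155163-30155247, and they are printed because the ratio of these partners was compared between genotypes. Acsl6 had the highest level per kb of principal transcript among the 5 acyl-CoA synthetases of the set. The stretch upstream of Acsl6 holds a match to the element of the oestrogen-related receptors, which regulate many oxidation genes (chr11:54303637-54303685, plus strand, match in capitals on the opposite strand, 167 bases before the start). That of Etfb, a short gene of the electron transfer step, holds a match to the site of nuclear respiratory factor 1, a regulator of mitochondrial genes (chr7:43444041-43444071, plus strand, match in capitals, 11 bases before the start).
Hadha-Hadhb: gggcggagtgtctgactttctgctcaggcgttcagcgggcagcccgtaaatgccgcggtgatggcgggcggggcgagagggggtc
Acsl6: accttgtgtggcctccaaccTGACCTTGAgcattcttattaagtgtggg
Etfb: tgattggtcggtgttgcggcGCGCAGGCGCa

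Promoter windows, from 250 bases before to 50 after a start, were searched for 30 of the 33 genes (33 windows). Windows on chromosome 18, where Acaa2 and Hsd17b4 lie, were left out for the 33 genes but kept among all windows. Decr1 had no window of this length. Both strands were searched for 3 motifs. The direct repeat bound by PPAR receptors (AGGTCA and AGGTCA with any 1 base between them) was in 0 of these 33 windows and in 0.0396% of all 32851 windows of this length. The oestrogen-related receptor element (TCAAGGTCA) was in the window of Acsl6 alone among the 30 genes searched and in 0.423% of all windows. The nuclear respiratory factor 1 site (GCGCA and GCGC with any 1 base between them) was in windows of 3 of the 30 genes. These were Etfb, Etfdh and Ppara, and 4.6% of all windows held the site.

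Reads in genes numbered 40366579 to 53984963 per pool. The sample descriptions also carry a K tag whose meaning is not stated. It was 20, 12 and 2 for WT pools 1 to 3 and 19, 4 and 9 for CKO pools 1 to 3. Notch2 stood at 99.3, 146 and 303 CPM (reads of a gene relative to all reads of the pool, after TMM normalisation) in WT pools 1 to 3 and at 65.3, 116 and 121 CPM in CKO pools 1 to 3. The Notch2 values of the genotypes overlapped (log2 fold change of CKO over WT -0.86, standard error (SE) 0.45, edgeR adjusted p = 0.790). Astrocyte markers were abundant in every pool, with a summed level of 25026 to 27312 CPM in WT and 23860 to 37002 CPM in CKO for 10 genes. Oligodendrocyte markers summed to 2381 to 6401 CPM in WT and 3194 to 5560 CPM in CKO, so the pools held RNA of more than stem cells. Markers of radial glia-like stem cells (8 genes, Gfap among them) summed to 1398 to 1529 CPM in WT and 1479 to 2315 CPM in CKO. Those of oligodendrocyte precursors summed to 1560 to 2683 CPM in WT and 1028 to 3059 CPM in CKO. Markers of cycling cells summed to 126 to 260 CPM in WT and 216 to 269 CPM in CKO. Neuronal markers were highest in WT pool 1 (797 CPM), against 313 and 316 CPM in WT pools 2 and 3. In the CKO pools they summed to 293 to 385 CPM. Red blood cell markers were also highest in WT pool 1 (392 CPM), against 17.5 and 54.8 CPM in WT pools 2 and 3. They summed to 14.3 to 118 CPM in the CKO pools. Microglial markers were highest in CKO pool 3 (561 CPM), against 176 to 281 CPM in the other pools.

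No gene of the set passed the adjusted threshold of 0.05 in CKO against WT (edgeR quasi-likelihood test, smallest adjusted p of the 33 genes 0.790), and neither did any of the 21477 genes tested (0% called). Differences ran both ways. In CKO, 16 genes stood above and 17 below WT, with a median log2 fold change of -0.01, against -0.06 over all genes tested. At an unadjusted p under 0.05, Acadsb and Cpt2 were higher in CKO (2 genes, against 3.01% of all genes) and Eci1, Acsl1 and Hsd17b10 were lower (3 genes, against 2.90%), which together made 15.2% of the 33 genes and 5.91% of all genes. The median SE was 0.30 for the 33 genes and 0.64 for all genes tested, so these shares set side by side genes of unlike precision. For 7 of the 33 genes all pools of 1 genotype lay above all pools of the other (21.2%, against 15.8% of all genes). These were Acadsb, Cpt2 and Acot2 with higher CKO levels (7.67% of all genes) and Acsl1, Echs1, Hsd17b10 and Eci1 with lower CKO levels (8.17% of all genes). DESeq2, run as an alternative, called 124 genes (0.596% of those tested), and none of them was among the 33. In bulk RNA from a sorted pool, fewer cells of a type and less RNA per cell cannot be told apart, for this and every later difference.

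**Figure D1:**
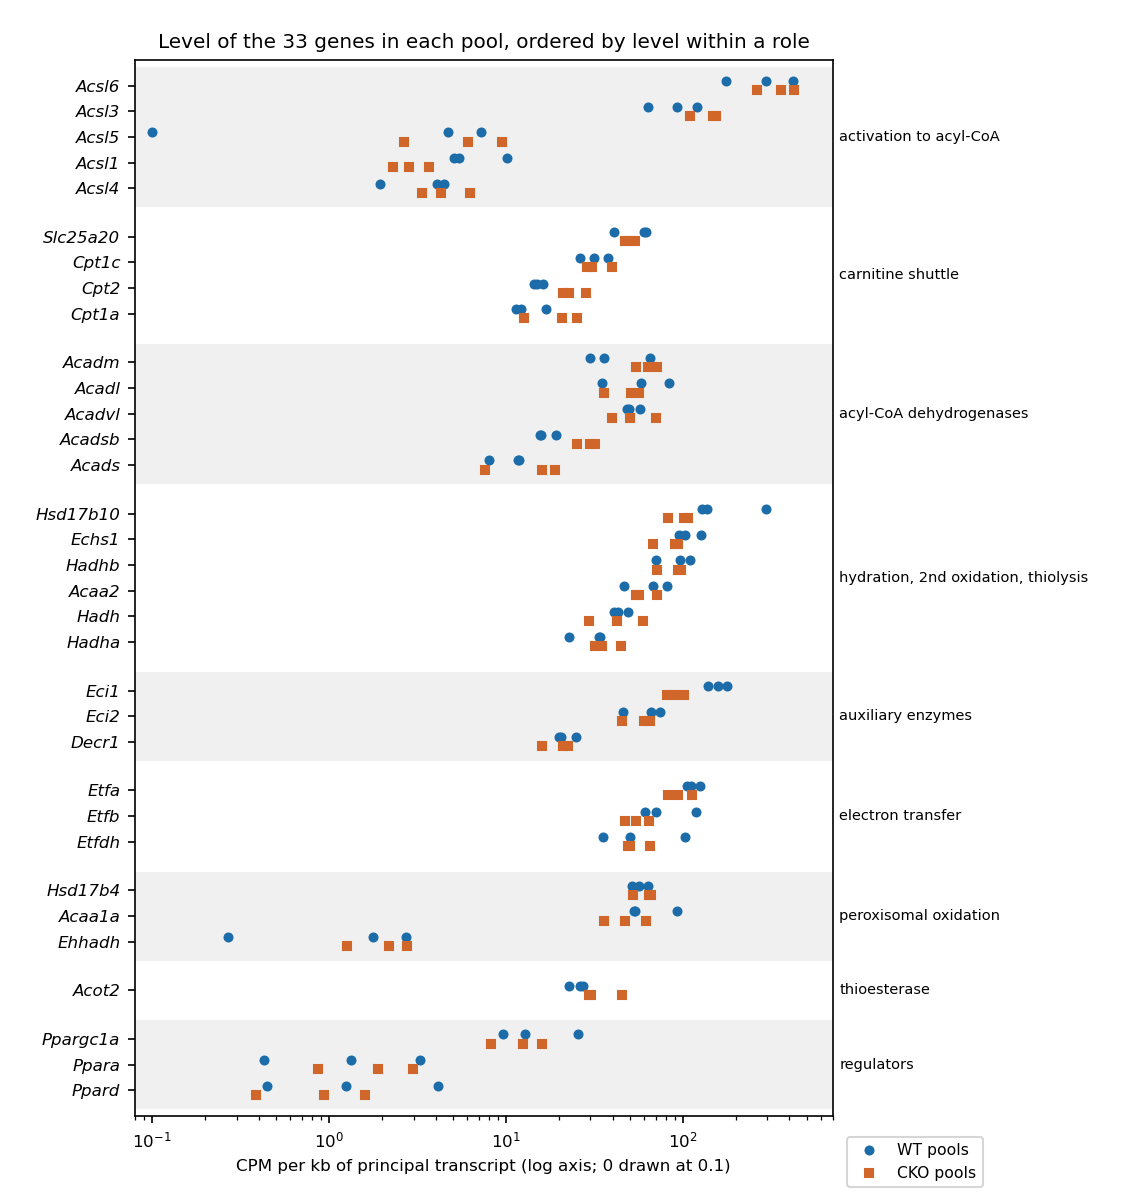
Level of each of the 33 genes in each pool, in CPM per kb of principal transcript on a log axis, grouped by role and ordered by mean level within a role (circles, WT pools; squares, CKO pools; Acsl5 in WT pool 3, at 0 reads, is drawn at 0.1). Acsl6 and Acsl3 stand far above the other acyl-CoA synthetases of the set in every pool, and most genes show overlapping pools.

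Of the 5 genes of the set that activate fatty acids, Acsl6 and Acsl3 had the highest levels. Outside the set, the synthetase gene Acsbg1 and the uptake gene Slc27a1 had means of 1118 and 888 CPM, against 835 CPM for Acsl6. These means are over all 6 pools and not scaled by length. Per kb of principal transcript, Acsl6, which is known for channelling polyunsaturated fatty acids into brain lipids, made up 66.9% to 75.8% of the summed level of the 5 synthetases in each pool. Acsl3, a synthetase of the endoplasmic reticulum and lipid droplets, made up 21.7% to 28.6%. Acsl4, which favours arachidonic acid, was the lowest of the 5 with 4.05 ± 1.41 CPM per kb (mean ± SD over all 6 pools), and its range of 1.94 to 6.24 CPM per kb overlapped those of Acsl1 and Acsl5. This order depended on the length used: with merged exon lengths, chosen after seeing the data, Acsl3 (104 CPM per kb) was above Acsl6 (84.2) and Acsl1 (1.82) below Acsl4 (3.96).

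Acsl6 was measured at 453, 768 and 1085 CPM in WT pools 1 to 3 and at 930, 678 and 1096 CPM in CKO pools 1 to 3. The WT pools alone spanned nearly the whole range, and the log2 fold change was 0.23 (SE 0.35). Acsl3 was measured at 250, 365 and 473 CPM in WT, against 585, 434 and 608 CPM in CKO. Only CKO pool 2 lay within the range of the WT pools, with group means of 362 ± 111 and 542 ± 94.5 CPM (SD, n = 3 each), and the log2 fold change was 0.58 (SE 0.28, adjusted p = 0.790 by edgeR). Reads of Acsl3 may be mixed with those of the overlapping gene Utp14b or left out as ambiguous where the genes overlap. Acsl4 was measured at 10.2, 23.5 and 21.4 CPM in WT, against 17.7, 33 and 22.6 CPM in CKO, with overlapping pools.

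Acsl1, a synthetase often linked to oxidation in mitochondria, had the largest fold difference among the 33 genes. It lies on chromosome 8 (46471037 to 46536051, plus strand, GRCm38). Its exons share 1039 bases with the predicted gene Gm45244 on the opposite strand. Its level was 21.2, 19.8 and 39.5 CPM in WT and 9.0, 14.3 and 11 CPM in CKO, so every CKO pool was below every WT pool. The log2 fold change was -1.23 (SE 0.43, edgeR adjusted p = 0.790), and the exact permutation test gave p = 0.1, the smallest that 3 against 3 pools allow. In every pool but CKO pool 3 its libraries differed by more than this genotype fold. The WT libraries ranged from 1.92 to 90.0 CPM, with both extremes in library 1 of WT pools 2 and 3, and the CKO libraries from 4.65 to 22.6 CPM. Acsl5 had 0 reads in both libraries of WT pool 3, the pool with the lowest K tag, and 11.3 to 40.3 CPM in the other 5 pools. By counting error alone, 0 reads allow up to 0.0795 CPM.

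The carnitine shuttle carries long acyl chains into mitochondria. By level per kb of principal transcript its order was Slc25a20, the exchanger of the inner membrane, then Cpt1c, Cpt2 and Cpt1a. With merged exon lengths it was Cpt2 (19.4 CPM per kb), Slc25a20 (19.3), Cpt1c (16.1) and Cpt1a (9.3), with Cpt1a last by either length. Slc25a20 supplied 36.7% to 53.7% of the summed level of the 4 genes in each pool and Cpt1a, the form that controls entry in most tissues and glia, 10% to 18.7%. Cpt1c, a neuronal form of the endoplasmic reticulum, had 26.3 to 39.7 CPM per kb, above the range of Cpt1a (11.4 to 25.2 CPM per kb). An antisense gene overlaps Cpt1c, so reads in the shared stretch are uncertain. Slc25a20 was measured at 108, 73.1 and 111 CPM in WT, against 95.6, 83.8 and 89.9 CPM in CKO. All its CKO pools lay inside the WT range. Cpt1c had a log2 fold change of 0.05 (SE 0.25), which was -0.12 in library 2.

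Cpt2, which returns the acyl chain from carnitine to coenzyme A inside mitochondria, was measured at 34.0, 38.6 and 35.3 CPM in WT, against 53.7, 49.8 and 67.2 CPM in CKO (chromosome 4, 107903981 to 107923610, minus strand, GRCm38). All CKO pools were above all WT pools, with means of 36.0 ± 2.38 and 56.9 ± 9.13 CPM (SD, n = 3 each). The log2 fold change was 0.66 (SE 0.26, edgeR adjusted p = 0.790, exact permutation p = 0.1). The close agreement of the WT pools hid a wide spread between their libraries. Library 1 gave 4.85, 44.1 and 3.55 CPM in WT pools 1 to 3 and library 2 gave 54.0, 32.0 and 63.5 CPM. Within library 1 the log2 fold change of Cpt2 was 1.74 and within library 2 it was 0.12.

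Cpt1a was measured at 49.4, 72.4 and 52.3 CPM in WT, against 89.2, 54.2 and 109 CPM in CKO. CKO pools 1 and 3 were above the WT range and CKO pool 2 inside it, with a log2 fold change of 0.53 (SE 0.33). As for Cpt2, the difference sat mostly in library 1 (1.40, against 0.09 in library 2). The log2 ratio of Cpt1a to Cpt1c per kb was 0.45 higher in CKO (exact permutation p = 0.2, adjusted over 4 ratios 0.267), and the genotypes overlapped.

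The acyl-CoA dehydrogenases carry out the opening oxidation and differ in the chain length they accept. Acadm (medium chains), Acadl (long chains) and Acadvl (very long chains) had similar levels per kb of principal transcript. Their means were 53.2, 53.1 and 52.5 CPM per kb, and their ranges overlapped. Exons of Acadvl share 1151 bases with Dvl2 on the opposite strand, so its level is less certain. Acads, for short chains, was the lowest with 12.4 CPM per kb. In CKO, 4 of the 5 genes stood above WT, and Acadl stood below (log2 fold change -0.30, SE 0.36). Acadl did not keep that sign, with -0.80 in library 1 but 0.12 in library 2, and 0.042 when WT pool 3 was left out. Acadvl hardly differed with all reads (0.05), with 0.71 in library 1 and -0.54 in library 2.

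Acadsb, which acts on short branched chains and is best known for its part in isoleucine breakdown, had the largest positive log2 fold change of the 33 genes. It lies on chromosome 7 (131410601 to 131448944, plus strand, GRCm38). Its level was 116, 95.9 and 94.5 CPM in WT and 194, 181 and 154 CPM in CKO. Every CKO pool lay above every WT pool, and the means were 102 ± 12.2 and 176 ± 20.4 CPM (SD, n = 3 each). The log2 fold change was 0.79 (SE 0.21, edgeR unadjusted p = 0.00672, adjusted p = 0.790, exact permutation p = 0.1).

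The libraries gave different sizes for Acadsb. Library 1 gave 50.3, 59.9 and 13.2 CPM in WT and 243, 161 and 142 CPM in CKO, a log2 fold change of 2.16. Library 2 gave 159, 138 and 167 CPM in WT and 142, 202 and 161 CPM in CKO, a log2 fold change of 0.10 with overlapping pools. The difference between the library fold changes, tested after these values had been seen, had an unadjusted p of 0.0195 and an adjusted p of 0.958 (edgeR interaction term, 12 libraries with the pool as a block). The same test had an unadjusted p under 0.05 for Acadl and Acadvl as well, hence for 3 of the 33 genes, against 4.87% of all genes tested.

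Acadm was measured at 73.4, 133 and 60.8 CPM in WT, against 111, 130 and 145 CPM in CKO. WT pool 2 lay among the CKO pools, and the log2 fold change was 0.53 (SE 0.33). Acads was measured at 15, 22.0 and 22.1 CPM in WT, against 35.4, 14.3 and 29.9 CPM in CKO. Its lowest pool was a CKO pool and its other CKO pools were the highest.

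Hydration, the later oxidation and thiolysis in mitochondria were represented by 6 genes, of which 5 stood below WT in CKO and Hadha above, but for Hadhb, Hadh and Acaa2 the sign turned when single pools were left out. Per kb of principal transcript, Hsd17b10 had the highest level (142 CPM per kb), followed by Echs1 (95.9) and Hadhb (89.5), and Hadha the lowest (33.6). The ranges of Hsd17b10, Echs1 and Hadhb overlapped. Hsd17b10, on the X chromosome (152001845 to 152004442, plus strand, GRCm38), encodes a dehydrogenase of branched and short chains that is also a subunit of mitochondrial ribonuclease P.

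Hsd17b10 was measured at 283, 132 and 123 CPM in WT, against 78.7, 102 and 97.7 CPM in CKO. All CKO pools were below the WT pools, with WT pool 1 far above the rest. The log2 fold change was -0.95 (SE 0.36, edgeR adjusted p = 0.790, exact permutation p = 0.1), and it was -0.45 without WT pool 1. In library 1 alone it was -1.15, with 451 CPM in WT pool 1. In library 2 alone it was -0.57, and the genotypes overlapped. Library 2 gave 128, 61.7 and 148 CPM in WT and 81.9, 75.0 and 73.9 CPM in CKO. Echs1, the hydratase of short chains, was measured at 197, 148 and 160 CPM in WT, against 141, 105 and 146 CPM in CKO. The groups were separated only by the narrow step from 146 to 148 CPM, and the log2 fold change was -0.37 (SE 0.23). Hadh, the dehydrogenase of shorter chains, and the thiolase Acaa2 had log2 fold changes of -0.01 and -0.10, with overlapping pools.

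Hadha and Hadhb form 1 complex, the trifunctional protein, whose alpha subunit hydrates and oxidises and whose beta subunit cleaves long chains. Hadha was measured at 91.7, 136 and 134 CPM in WT, against 180, 128 and 140 CPM in CKO. Hadhb was measured at 144, 198 and 223 CPM in WT, against 191, 146 and 198 CPM in CKO. Neither gene separated the genotypes, with log2 fold changes of 0.31 (SE 0.25) and -0.08 (SE 0.25).

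Across the short gap printed above, the RNA of the partners was unequal in every pool. The log2 ratio of Hadha to Hadhb per kb was -1.62, -1.51 and -1.71 in WT and -1.06, -1.15 and -1.48 in CKO. Every CKO ratio was above every WT ratio, by 0.38 on average (exact permutation p = 0.1, adjusted over 4 ratios 0.2). Within library 1 the mean difference was 0.08 and within library 2 it was 0.68.

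The auxiliary enzymes prepare unsaturated chains for oxidation, and all 3 stood below WT in CKO, although Eci2 and Decr1 turned sign without WT pool 2 or CKO pool 2. Eci1, an isomerase that moves double bonds into place, supplied 52.2% to 70.4% of their summed level per kb in each pool. Decr1, a reductase of conjugated double bonds, had the lowest level per kb (20.7 CPM per kb). Decr1 was measured at 58.6, 73.3 and 60.8 CPM in WT, against 66.0, 47.1 and 62.5 CPM in CKO, with overlapping pools. Eci2, an isomerase found in mitochondria and peroxisomes, had a log2 fold change of -0.13.

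Eci1 had the smallest unadjusted p of the 33 genes. It lies on chromosome 17 (24426641 to 24439348, plus strand, GRCm38). Its level was 202, 158 and 180 CPM in WT and 103, 92.6 and 115 CPM in CKO. All CKO pools lay below the WT range, and the means were 180 ± 21.8 and 103 ± 11 CPM (SD, n = 3 each). The log2 fold change was -0.80 (SE 0.21, edgeR unadjusted p = 0.00597, adjusted p = 0.790, exact permutation p = 0.1). It had the same sign in both libraries, at -1.10 in library 1 and -0.35 in library 2. In library 2 the genotypes overlapped, with 101, 87.7 and 147 CPM in WT and 82.7, 94.5 and 88.4 CPM in CKO.

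**Figure D2:**
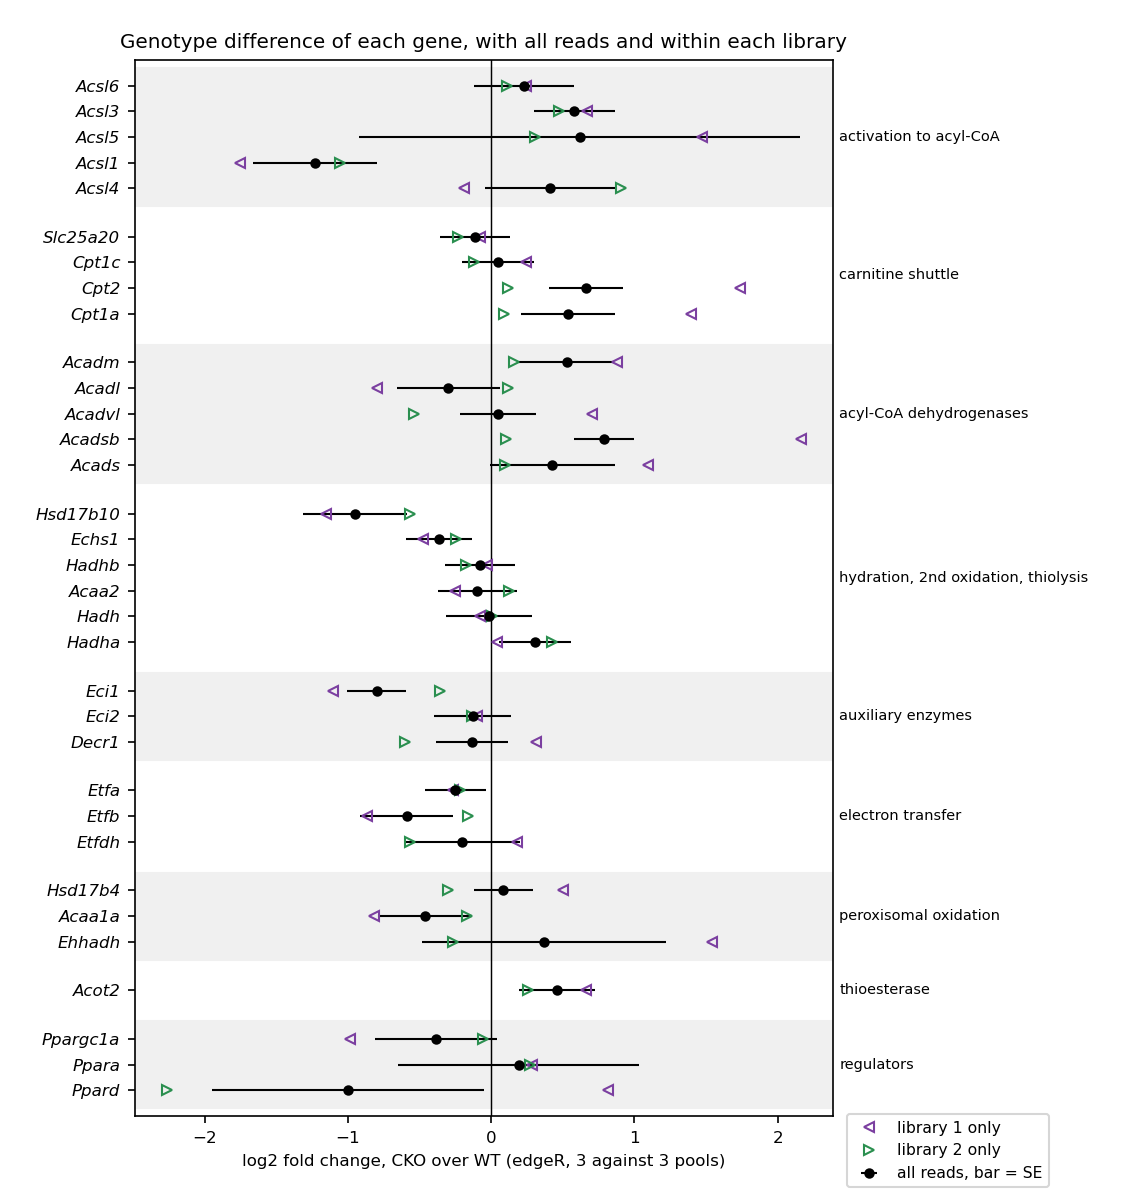
Log2 fold change of CKO over WT for each of the 33 genes by role, from all reads (filled points, bars are the SE of the edgeR fit, 3 against 3 pools) and from library 1 or library 2 alone (open triangles). For Cpt2, Cpt1a and Acadsb the library 1 value lies at 1.40 or above while the library 2 value lies at or below 0.12.

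Electron transfer from the dehydrogenases to ubiquinone depends on the flavoprotein subunits Etfa and Etfb and on the oxidoreductase Etfdh. All 3 genes stood below WT in CKO, with log2 fold changes of -0.25 (SE 0.21), -0.59 (SE 0.32) and -0.20 (SE 0.40). Etfa was measured at 175, 155 and 147 CPM in WT, against 115, 131 and 156 CPM in CKO, and CKO pool 3 lay between the WT pools. Etfb was measured at 106, 62.7 and 54.1 CPM in WT, against 41.8, 48.6 and 57.4 CPM in CKO. WT pool 1 stood above all others, and without it the log2 fold change of Etfb was -0.23. A predicted gene on the same strand shares 617 bases of exon with Etfb. Reads in that stretch may have been left out as ambiguous or mixed between the genes.

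The ratio of Etfa to Etfb was nearly the same in 5 of the 6 pools. Its log2 value per kb was 0.08, 0.67 and 0.80 in WT and 0.82, 0.79 and 0.80 in CKO, so only WT pool 1 stood well apart. The genotypes differed by 0.28 (exact permutation p = 0.3, adjusted over 4 ratios 0.3). Etfdh was measured at 84.5, 119 and 244 CPM in WT, against 155, 120 and 116 CPM in CKO. WT pool 3 was the highest by far, and without it the log2 fold change turned from -0.20 to 0.35.

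The peroxisome shortens very long and branched chains. Per kb of principal transcript, Hsd17b4 and Acaa1a had similar levels (59.1 and 57.3 CPM per kb). With merged exon lengths Hsd17b4 (46.6 CPM per kb) stood above Acaa1a (22.9). Ehhadh was near the bottom of all 33 genes (1.83 CPM per kb). Hsd17b4, the multifunctional enzyme of the D-type pathway, varied little between pools. It was measured at 152, 139 and 171 CPM in WT, against 177, 141 and 172 CPM in CKO, with a log2 fold change of 0.09 (SE 0.21). Ehhadh, the L-type counterpart, was measured at 8.15, 5.31 and 0.795 CPM in WT, against 6.51, 3.75 and 8.16 CPM in CKO, with overlapping pools. Acaa1a, a thiolase, has a close paralog in Acaa1b, and its reads are uncertain for that reason. Its log2 fold change was -0.46 (SE 0.33), with overlapping pools.

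Acot2, a mitochondrial thioesterase that releases free fatty acids from coenzyme A, was measured at 57.6, 49.6 and 59.7 CPM in WT, against 64.7, 99.1 and 66.1 CPM in CKO. The pools did not overlap, but CKO pools 1 and 3 lay just above the WT range. The log2 fold change was 0.46 (SE 0.27, exact permutation p = 0.1) and 0.23 without CKO pool 2. Reads may be split between Acot2 and its near copy Acot1.

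Among the regulators, Ppara and Ppard had the lowest levels per kb of the 33 genes. Ppargc1a, a coactivator of mitochondrial genes, was measured at 62.0, 82.8 and 165 CPM in WT, against 80.7, 53.5 and 103 CPM in CKO. Ppara, the nuclear receptor that drives oxidation genes in liver, was measured at 4.51, 11.1 and 1.46 CPM in WT, against 2.95, 10.1 and 6.43 CPM in CKO. Ppard, its widely expressed relative, was measured at 4.07, 1.46 and 13.6 CPM in WT, against 3.05, 5.25 and 1.26 CPM in CKO. None of the 3 separated the genotypes, and for Ppargc1a and Ppard the sign of the log2 fold change (-0.39 and -1.0) turned without WT pool 3 (0.13 and 0.19).

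Of the 4 ratios between partners or forms, that of Acsl3 to Acsl6 also had no overlap between genotypes. Its log2 value per kb was -1.47, -1.68 and -1.81 in WT and -1.28, -1.25 and -1.46 in CKO, a difference of 0.32 (exact permutation p = 0.1, adjusted over 4 ratios 0.2). The step between the closest pools was small next to the median difference of 0.36 between the libraries of a pool.

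The libraries of a pool carry the same pool label, and whether they were made from the same RNA is not stated in the sources used here. Comparing library 2 with library 1 over 6 pools (edgeR with the pool as a block), none of the 33 genes passed the adjusted threshold (0% of 18267 genes tested called in either direction, smallest adjusted p of the 33 genes 0.173). At an unadjusted p under 0.05, Acsl5 was higher in library 2 (1 gene, against 7.60% of all genes), and Etfa, Eci1, Etfb and Echs1 were lower (4 genes, against 6.78%). Etfa was lower in library 2 in 6 of 6 pools, with 225, 207 and 205 CPM in library 1 and 121, 93.4 and 121 CPM in library 2 of WT pools 1 to 3. In CKO pools 1 to 3 it had 135, 178 and 211 CPM in library 1 and 93.5, 94.2 and 106 CPM in library 2. The log2 difference of Etfa was -0.87 (SE 0.15, adjusted p = 0.173) and that of Eci1 -0.82 (SE 0.23, adjusted p = 0.216). The median absolute log2 difference between libraries of a pool was 0.53 for the 33 genes and 0.80 for all genes. The sets also differed in precision, as given above for the genotype comparison.

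**Figure D3:**
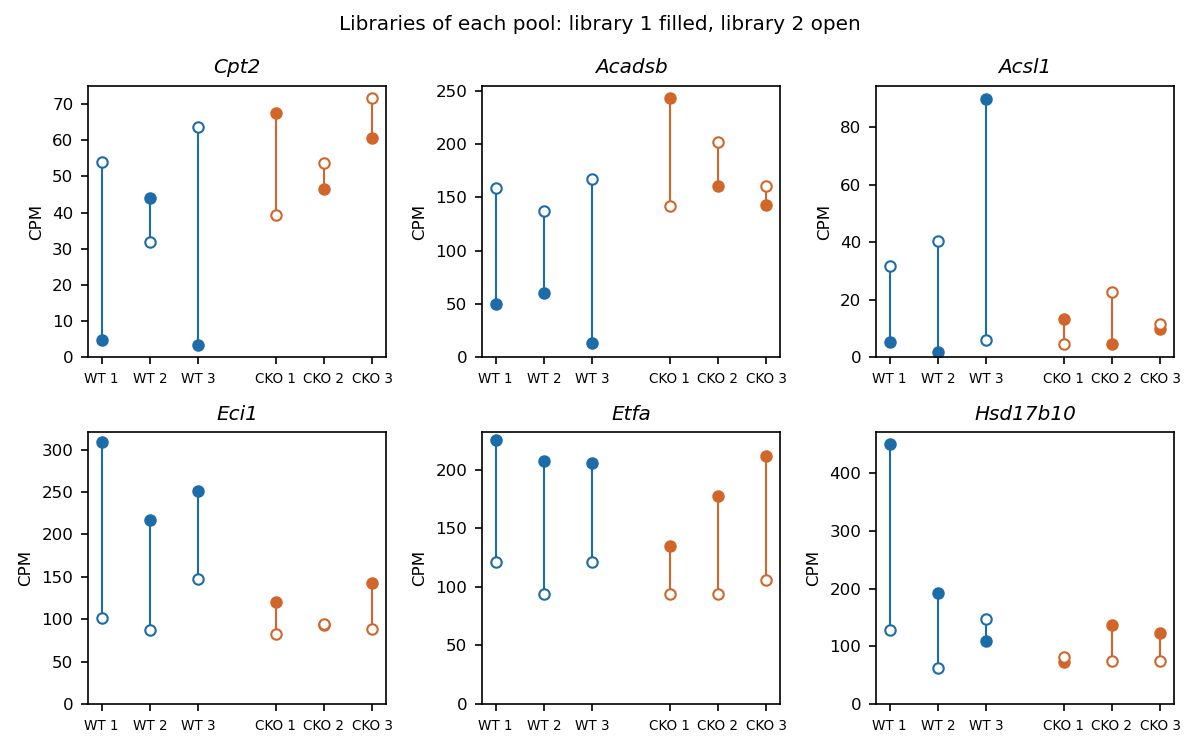
CPM of 6 of the genes in library 1 (filled) and library 2 (open) of each pool, joined by a line, with WT pools on the left and CKO pools on the right of each panel. The lowest Cpt2 and Acadsb values come from library 1 of WT pools, and Etfa is lower in library 2 in 6 of 6 pools.

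The 4 genes with a principal transcript under 1500 bases, Etfb (893 bases), Hsd17b10 (962), Eci1 (1137) and Etfa (1392), all stood below WT, with a median log2 fold change of -0.70 (-0.98 in library 1 alone, -0.28 in library 2 alone). The 10 genes of 3000 bases or more, Acadsb among them (6081 bases), had a median of 0.36, with 7 above WT (0.48 in library 1 alone, 0.19 in library 2 alone). All protein-coding genes followed the same order, with medians of -0.47 under 1500 bases and 0.16 from 3000 bases. Spearman's rho between length and log2 fold change was 0.48 across the 33 genes and 0.25 across 14323 protein-coding genes, which share libraries and are not independent replicates. In library 1 and library 2 alone it was 0.47 and 0.30 across the 33 genes and 0.26 and 0.15 across protein-coding genes. The libraries of 1 pool differed along the same line. Library 2 against library 1 gave medians of -0.79 for the 4 short genes and 0.35 for the 10 long ones, with rho = 0.73 across the 33 genes. Without WT pool 1 the genotype medians were -0.34 and 0.15, and rho was 0.37 across the 33 genes and 0.10 across all protein-coding genes. A list of 24 nuclear genes of the respiratory chain moved with the short genes, with 22 below WT and a summed level of 6384 to 9864 CPM in WT (highest in pool 1) and 5140 to 6013 CPM in CKO. The part of transcript length in the differences of single genes was not tested.

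**Figure D4:**
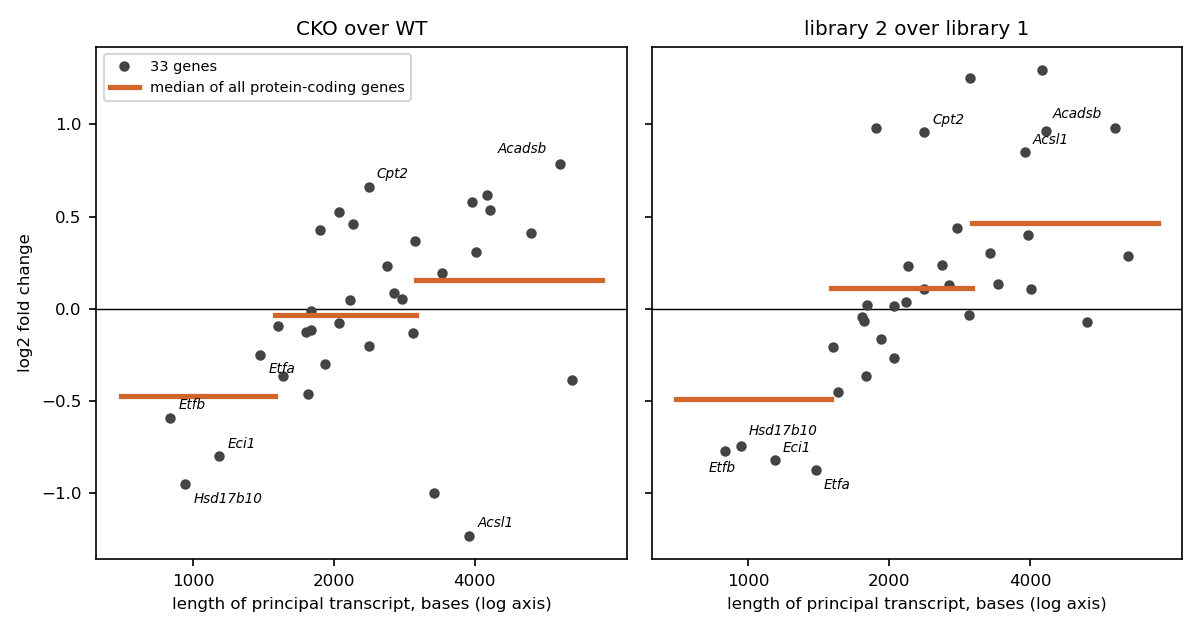
Log2 fold change against the length of the principal transcript (log axis) for the 33 genes (points), for CKO over WT on the left and library 2 over library 1 on the right, with the median of all protein-coding genes in 3 length classes (bars). The 4 genes under 1500 bases lie below 0 in both panels.

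Around these enzymes, 95 further genes of uptake, carnitine metabolism, peroxisomes, ketone bodies, lipid droplets, thioesterases and regulation were followed, of which 92 were tested. Slc27a5, Acsbg2 and the muscle form Cpt1b had too few reads. In CKO, 39 stood above and 53 below WT, and none passed the adjusted threshold with edgeR. At an unadjusted p under 0.05 there were 3 higher and 5 lower genes (8.70%, against 5.91% of all genes), and 14 genes had pools that did not overlap (15.2%, against 15.8% of all genes). The median SE was 0.37 for these 92 genes and 0.64 for all genes.

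Those with higher CKO levels included Abcd2 and Acad11. Abcd2, which imports very long chains into peroxisomes, was measured at 50.4, 88.1 and 87.5 CPM in WT, against 160, 131 and 183 CPM in CKO (log2 fold change 1.07, SE 0.29). Every CKO pool of Abcd2 was above every WT pool, and both libraries gave a positive value (1.63 and 0.53). Acad11, a dehydrogenase of very long chains, was measured at 14.2, 17.0 and 3.89 CPM in WT, against 23.7, 45.2 and 35.5 CPM in CKO. Every CKO pool of Acad11 was above every WT pool as well, and the transcripts of both genes are longer than 3000 bases.

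Those with lower CKO levels included Slc25a29, Dbi, Acot13 and Mcee. Slc25a29, a mitochondrial carrier of basic amino acids once described as a carnitine carrier, was measured at 70.3, 79.4 and 79.9 CPM in WT, against 43.1, 39.2 and 43.1 CPM in CKO. Its pools were tightly grouped and far apart, with a log2 fold change of -0.87 (SE 0.23), an edgeR adjusted p of 0.790 and a DESeq2 adjusted p of 0.0329. The fold change was negative in each library (-0.73 and -0.97). Dbi, the acyl-CoA binding protein, was measured at 1699, 756 and 1133 CPM in WT, against 689, 717 and 630 CPM in CKO. Its log2 fold change of -0.82 (SE 0.30) was -0.47 without WT pool 1. Acot13, a thioesterase, was measured at 195, 104 and 181 CPM in WT, against 77.4, 99.7 and 100 CPM in CKO (-0.79, SE 0.29). Mcee, an epimerase of propionate breakdown, was measured at 67.9, 50.1 and 53.7 CPM in WT, against 35.4, 37.9 and 35.4 CPM in CKO (-0.66, SE 0.26). In both, no CKO pool reached the lowest WT pool, but the value of Mcee was -1.38 in library 1 and 0.39 in library 2. Dbi, Acot13 and Mcee have transcripts under 1500 bases and Slc25a29 has one of 1976 bases.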

How the data were processed

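The deposited tables hold raw read counts per gene for 24 runs, which the authors made with Bowtie2 and HTSeq on GRCm38, per the submitters' processing notes. The sources used here do not give versions, counting settings or use of strand. Of all reads per pool, 16.0% to 35.3% were in no gene, 11.2% to 21.7% were not aligned and 2.51% to 3.43% were ambiguous, and these were left out. No reads were listed as aligned to several places, so counts of close paralogs are uncertain. Lanes and libraries were summed per pool, which gave 3 pools per genotype.

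Genotypes were compared with edgeR 4.0.16 (R 4.3.3, filterByExpr by genotype, TMM, robust quasi-likelihood F test, Benjamini-Hochberg threshold 0.05 over 21477 genes). The steps were tested on simulated data. Single values were compared by exact two-sided permutation tests of log2 CPM (prior count 2) over 20 splits. Where pools do not overlap, this test gives its smallest possible p of 0.1, which adds nothing to the lack of overlap. A read corresponded to 0.0175 to 0.0265 CPM, and reads carry no molecular identifiers, so this precision covers counting error only. Levels per kb use the principal transcript of GENCODE M21. Pools are not overlapping where the lowest of 1 genotype exceeds the highest of the other. Alternatives were RLE scaling, no filter, a replicate block, DESeq2 1.42.0, limma-voom (limma 3.58.1), each pool left out and each library alone. The genes and lists were chosen with earlier results of these data known. Values in every pool are given for those of the 33 genes with an unadjusted p under 0.05 or pools that do not overlap, the highest and lowest of each role by level per kb, and 8 fixed genes. Further pathway genes are named where the unadjusted p was under 0.05 and the mean at least 1 CPM, and Acsbg1 and Slc27a1 for their level. Some genes that this rule names are not reported here.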

Additional observations from a re-analysis of the deposited data

How the results depend on the processing

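Under every alternative run for the genotype comparison, none of the 33 genes passed the adjusted threshold. DESeq2 called 124 genes in all, 1 of the 92 further pathway genes (Slc25a29, log2 fold change -0.87) and, between libraries, 4 of the 33. Pool numbers did not pair the pools (correlations of same-numbered pools 0.06, 0.02 and -0.03). With the replicate block, 1 gene was higher and 1 lower at an unadjusted p under 0.05 (2 and 3 without it), and 4 further pathway genes passed that level (8 without it). Leaving out single pools gave 1 to 3 higher, 1 to 3 lower and 3 to 14 pathway genes, the last without WT pool 2, and 3 and 3 without CKO pools 2 and 3. Without CKO pool 1 or 3, 1 higher and 1 lower gene were left. Genes without overlap numbered 3 to 8 higher (8 without CKO pool 2) and 4 to 6 lower. Library 1 alone gave 1 lower gene at that level. Library 2 alone gave 0 higher, 0 lower and 3 pathway genes, with 1 higher and 2 lower genes without overlap. The library comparison gave 2 to 7 genes, with 2 without WT pool 2. Shares over all genes in the same settings are not given for these counts, so they do not describe the 33 genes in particular. With fewer pools, a lack of overlap also arises more easily.

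Ratios by library 1 and library 2 were 0.081 and 0.68 for Hadha to Hadhb, 0.50 and -0.041 for Etfa to Etfb, 1.28 and 0.085 for Cpt1a to Cpt1c, and 0.14 and 0.48 for Acsl3 to Acsl6. Of 533 log2 fold changes under alternatives for 41 genes (all 33 and 8 further pathway genes), 40 turned sign. In library 1 alone these were Acsl4 (-0.19), Decr1 (0.31), Etfdh (0.18) and Ppard (0.82). In library 2 alone they were Cpt1c (-0.12), Acadvl (-0.54), Acadl (0.12), Hadh (0.0078), Acaa2 (0.13), Ehhadh (-0.26), Hsd17b4 (-0.30) and Mcee (0.39). With limma-voom they were Slc25a20 (0.082), Acadvl (-0.029), Etfdh (0.15), Ppara (-0.40) and Ppard (0.024), and without a filter Hadh (0.010). Leaving out single pools turned the others, over ranges of -0.024 to 0.56 for Acsl6 (without WT pool 1), -0.094 to 0.24 for Cpt1c (WT pool 1 or CKO pool 1), -0.16 to 0.22 for Acadvl (CKO pool 3), -0.55 to 0.042 for Acadl (WT pool 3), and -0.22 to 0.062 for Hadhb (WT pool 2 or 3, or CKO pool 2). They were -0.26 to 0.21 for Hadh (WT pool 1, or CKO pool 1 or 2), -0.29 to 0.16 for Acaa2 (WT pool 2), -0.31 to 0.078 for Eci2 and -0.22 to 0.026 for Decr1 (both WT pool 2 or CKO pool 2). They were -0.28 to 1.19 for Ppara (WT pool 3 or CKO pool 2) and, without WT pool 3, -0.47 to 0.35 for Etfdh, -0.14 to 1.03 for Ehhadh, -1.56 to 0.19 for Ppard and -0.63 to 0.13 for Ppargc1a. The cause was not tested.

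With merged exon lengths, chosen after seeing the data, Hsd17b10 ranked 1, Acsl3 2 and Acsl6 3 by level per kb, and Echs1 20 rather than 6. Within roles, Acadl (50.7 CPM per kb) and Acadvl (42.4) then stood above Acadm (27.8), and Acaa2 (62.9) above Hadhb (27.8) and Echs1 (18). Protein comparisons were not run here.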
